A study of Homo sapiens with 179 samples.

Results

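The replication-dependent histone genes encode the H1, H2A, H2B, H3 and H4 proteins that package newly made DNA. They were taken as every gene whose symbol begins with HIST1H, HIST2H, HIST3H or HIST4H, which gave 70 of the 19084 genes measured. Of these, 6 encode H1, 17 H2A, 18 H2B, 14 H3 and 15 H4. By RefSeq, 55 belong to the HIST1 cluster on chromosome 6, 11 to HIST2 and 3 to HIST3 on chromosome 1, and 1 to HIST4 on chromosome 12.

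The RNA came from H1, an established line of human embryonic stem cells grown on Matrigel in E8, a defined medium. The 6 libraries made with the TruSeq RNA Sample Prep Kit v2 were labelled H1p16 (n = 3) and H1p43 (n = 3) (the sources used here do not say what p16 and p43 stand for). The other libraries were made by LM-Seq, in which messenger RNA was captured from 100 ng of total RNA on oligo-dT beads, reverse transcribed from random hexamers and kept strand-specific. They were labelled by lane, with 95 libraries in Lane 1, 48 sharing Lane 2, 24 sharing Lane 3 and 6 sharing Lane 4, and 5-digit library numbers recur across lanes. The 6 Lane 4 libraries are called here the first to the sixth in the order of those numbers, which serves only as a name. All groups share the cell line and medium. The labels do not tie replicates to separate cultures, so every p-value is set against a spread between libraries that may be technical. Library totals ranged from 23680503 to 35852646 expected counts in TruSeq, with 12 samples per lane. In LM-Seq they were shallower: Lane 1 libraries held 1040671 to 1539277, those of Lane 2 2005736 to 2739084, those of Lane 3 4028607 to 4918577 and those of Lane 4 15780078 to 16583048. All 6 markers of pluripotent stem cells examined were above 1 TPM in every group, with POU5F1 at a mean of 3191 TPM in H1p16, 3070 in H1p43 and 2101 in Lane 4. SOX2 had means of 289, 256 and 165.26 TPM in the same groups, and NANOG 137.13, 125.11 and 156.43 TPM. The other 3 markers were higher in Lane 4 than over TruSeq, with DNMT3B at 1723 against 1116 TPM, LIN28A at 1844 against 873 and TDGF1 at 2032 against 936. The sum of the 6 was 6984 TPM in H1p16, 5934 in H1p43 and 8022 in Lane 4. TPM scales each count by transcript length and library total. Among 6 fibroblast markers, 3 were above 1 TPM and 2 were at 0 in every group. The summed level of the 6 lay between 78.7 and 112.1 TPM in the TruSeq libraries and between 138.55 and 150.19 TPM in Lane 4. Of 5 neuroectoderm markers 2 were above 1 TPM in every group, and the 5 summed to means of 154.6 TPM in TruSeq and 233.0 TPM in Lane 4. Markers of primitive streak and mesoderm summed to 3.99 and 1.35 TPM in the same groups, and those of endoderm to 4.24 and 2.34 TPM.

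Histone messenger RNAs of this class are made mainly during S phase, when the cell copies its DNA. Most end in a conserved stem-loop in place of a poly(A) tail, and the stem-loop-binding protein SLBP holds that structure through processing, translation and decay. Some of the genes also give a longer, polyadenylated transcript by reading through the stem-loop to a downstream signal. Replacement histones such as H3.3 and H2A.Z are instead made throughout the cell cycle from ordinary polyadenylated messengers. Capture on oligo-dT selects transcripts with a poly(A) tail, so a level given here is that of the captured forms. Whether the captured histone transcripts all had a poly(A) tail was not tested.

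The stem-loop was located in the GENCODE transcripts of GRCh38, because a transcript that ends just past it and one that runs on are the 2 forms an oligo-dT capture separates. It is shown for 7 genes on which the results turn, with 4 flanking bases on each side, and capitals mark the 16 bases of the stem-loop.
HIST1H4J: aaaaGGCCCTTTTCAGGGCCaccc
HIST1H4H: caaaGGCCCTTTTCAGGGCCgccc
HIST2H4A: caaaGGCCCTTTTTAGGGCCgacc
HIST1H2BH: caaaGGCTCTTTTCAGAGCCactt
HIST1H2AC: caaaGGCTCTTTTCAGAGCCcccc
HIST3H2A: taaaGGCTCTTTTCAGAGCCacct
HIST1H2BD: caaaGGCTCTTTTAAGAGCCacgc
A stem-loop was found in an annotated transcript of 32 of the 70 genes. The form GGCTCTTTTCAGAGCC was the commonest, in 17 genes, all of type H2A, H2B or H3. The forms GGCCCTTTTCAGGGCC, in 5 genes, and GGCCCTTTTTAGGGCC, in 3, were found in H4 genes. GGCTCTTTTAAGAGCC was found in 5 genes, and 2 other forms in 1 gene each, HIST1H3E and HIST1H2AG. In 23 of the 32 genes an annotated transcript ran more than 100 bases past the stem-loop, and in 9 every annotated transcript that holds the stem-loop ended within that distance. One of the 9 was HIST1H2BD, which also has an annotated transcript of 789 bases without a stem-loop. The longest annotated transcript continued 1640 bases past the stem-loop in HIST1H2BH, 1114 in HIST1H2AC and 630 in HIST1H4H, but 6 in HIST1H4J. The models behind the counts were not these. Their lengths relative to the median gene, from expected count over TPM, were 0.135 for HIST1H2BH, 0.177 for HIST1H2AC and 0.117 for HIST1H4H. HIST2H2BE, with an annotated transcript of 2194 bases, was at 0.759. The models counted for HIST1H2BH, HIST1H2AC and HIST1H4H were thus too short to span these extensions. For the other 38 genes, among them HIST1H1C and HIST1H2BK, the annotated transcripts contained no such sequence. Many of these transcripts, those of HIST1H1C and HIST1H2BK included, are annotated only to the stop codon and could not show a stem-loop. The missing match therefore does not mean that a gene lacks one.

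Several members share coding sequence, which limits what a single gene's value means. Of the coding sequences, 4 were carried by 2 genes each without a difference: HIST1H4J and HIST1H4K, HIST2H2AA3 and HIST2H2AA4, HIST2H3A and HIST2H3C, and HIST2H4A and HIST2H4B. Reads within such a sequence cannot be assigned to one copy, and RSEM divided them by its model. The first 99 coding bases are printed for 6 H4 genes, with capitals at the bases that differ from HIST1H4J, to show which of them reads can tell apart.
HIST1H4J: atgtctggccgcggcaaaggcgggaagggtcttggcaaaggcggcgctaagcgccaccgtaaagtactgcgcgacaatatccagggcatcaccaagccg
HIST1H4K: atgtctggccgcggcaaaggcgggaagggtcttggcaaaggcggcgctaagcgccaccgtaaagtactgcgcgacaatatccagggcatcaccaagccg
HIST2H4A: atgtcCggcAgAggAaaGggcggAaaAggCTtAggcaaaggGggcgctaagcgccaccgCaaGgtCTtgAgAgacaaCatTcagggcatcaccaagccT
HIST1H4H: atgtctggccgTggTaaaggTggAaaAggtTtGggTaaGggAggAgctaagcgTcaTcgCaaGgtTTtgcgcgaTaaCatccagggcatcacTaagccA
HIST1H4C: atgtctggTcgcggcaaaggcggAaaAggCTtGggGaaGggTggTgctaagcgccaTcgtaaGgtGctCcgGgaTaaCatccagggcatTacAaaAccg
HIST1H4I: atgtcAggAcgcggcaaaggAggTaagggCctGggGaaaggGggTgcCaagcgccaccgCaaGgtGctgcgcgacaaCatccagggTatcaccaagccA
Over the whole 312 coding bases, HIST1H4K matched HIST1H4J at every position, and HIST1H4I, HIST2H4A, HIST1H4H and HIST1H4C differed from it at 31, 47, 52 and 61 positions. The median identity over pairs was 83.7% among H4 genes, 85.4% among H3, 85.2% among H2A and 89.8% among H2B. The uneven division of identical reads was visible in TruSeq. HIST1H4J and HIST1H4K were listed at 41.66 and 0 TPM in H1p16 replicate 1 but at 34.46 and 17.49 TPM in replicate 2, and at 21.33 and 23.57 TPM in H1p43 replicate 2. Their sum is therefore given beside either value. No source used here says whether strand entered the counting, so reads of overlapping or antisense transcripts may not be told apart.

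Summed over the 70 genes, TPM stood above the LM-Seq means in TruSeq. The mean was 241.8 ± 13.2 TPM in H1p16 and 226.0 ± 3.1 TPM in H1p43 (SD, n = 3 each), and the 6 TruSeq libraries lay between 223.0 and 249.8 TPM. In LM-Seq, Lane 1 had a mean of 188.2 ± 32.6 TPM (n = 95), Lane 2 one of 189.4 ± 23.5 (n = 48), Lane 3 one of 186.8 ± 25.6 (n = 24) and Lane 4 one of 181.7 ± 15.6 TPM (n = 6). The Lane 4 libraries lay between 168.2 and 208.2 TPM, below every TruSeq library, and the ratio of the Lane 4 mean to the TruSeq mean was 0.777. Most of the gap between these means lay in the identical pair HIST1H4J and HIST1H4K, with 42.97 TPM in TruSeq and 2.98 TPM in Lane 4. The Lane 1 libraries ranged from 119.3 to 266.6 TPM, so the highest lay above every TruSeq library. No test was made of these sums.

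The sums by type differed in how far the protocols stood apart, and single genes weighed heavily in them. H4 genes summed to 73.4 ± 5.5 TPM in H1p16 and 64.9 ± 1.1 TPM in H1p43, against 41.4 ± 15.3 TPM in Lane 4 and means of 38.4 to 39.1 TPM in the other lanes. The second Lane 4 library reached 69.2 TPM for H4, inside the TruSeq range of 64.2 to 77.5 TPM. The H4 mean over the 6 TruSeq libraries was 69.15 TPM. Of these sums the identical pair HIST1H4J and HIST1H4K held means of 42.97 TPM in TruSeq and 2.98 TPM in Lane 4. That gap is larger than the gap of the whole H4 sum, so the other H4 genes together did not sum lower in Lane 4. H2B genes summed to 65.1 ± 3.6 TPM over the 6 TruSeq libraries and 53.1 ± 4.5 TPM in Lane 4, and H2A genes to 67.6 ± 4.3 and 58.7 ± 4.9 TPM. Among H2B genes HIST1H2BH alone had means of 17.6 and 4.685 TPM in the same groups, while HIST1H2BD went the other way. Among H2A genes HIST3H2A had 20.3 and 11.9 TPM, while HIST1H2AC went the other way, with 16.8 and 23.3 TPM. The H1 sum was 19.7 ± 1.0 TPM in TruSeq and 16.5 ± 4.1 TPM in Lane 4, and the H3 sum 12.3 ± 2.3 and 11.9 ± 3.2 TPM, with overlapping libraries in both.

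**Figure D1:**
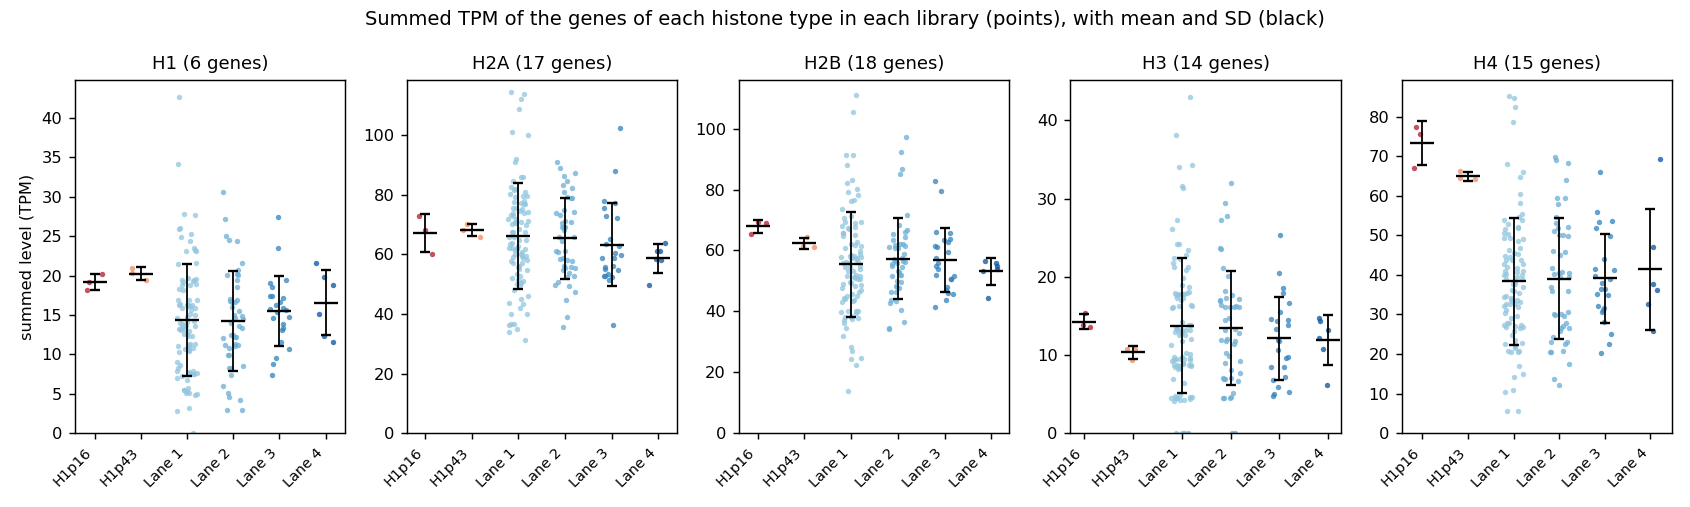
Summed TPM of the genes of each histone type, 1 panel per type, against group on the x axis; each point is a library and the black marks are the mean and SD. H4 stands at 64.2 to 77.5 TPM in the 6 TruSeq libraries and at means of 38.4 to 41.4 TPM in the LM-Seq lanes, with single LM-Seq libraries reaching into the TruSeq range. Lane 4 and TruSeq libraries overlap for H1, H2A, H3 and H4 but not for H2B.

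The H3 genes together stayed far below single replacement genes. H3F3A, which encodes the replacement histone H3.3, had 2108 ± 46 TPM in H1p16 and 1723 ± 55 TPM in Lane 4, and H3F3B, the second H3.3 gene, had 389 and 516 TPM. The 14 H3 members made up 0.562% of all H3 TPM in H1p16, 0.419% in H1p43 and 0.523% in Lane 4. The H2A members made up 3.47%, 3.73% and 3.71% of H2A TPM in the same groups, where H2AFZ, which encodes the replacement histone H2A.Z, had 1273, 1225 and 927 TPM. Of H1 TPM, counted with the replacement linker histones H1F0 and H1FX, the 6 members held 9.18% in H1p16, 6.31% in H1p43 and 11.6% in Lane 4.

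Few genes carried most of the signal. Of the 70, 17 reached a mean of 5 TPM in at least 1 group, 47 reached 1 TPM, and 23 stayed below 1 TPM in every group. The 17 were the linker histone gene HIST1H1C, the H2A genes HIST1H2AC, HIST2H2AA3, HIST2H2AA4 and HIST3H2A, the H2B genes HIST1H2BD, HIST1H2BG, HIST1H2BH, HIST1H2BJ, HIST1H2BK and HIST2H2BE, and the H4 genes HIST1H4H, HIST1H4I, HIST1H4J, HIST1H4K, HIST2H4A and HIST2H4B. No H3 gene was among them, and the highest H3 mean was 3.20 TPM, for HIST1H3G in Lane 2. The order of levels depended on the protocol. In H1p16 the highest means belonged to HIST1H4J at 34.9 ± 6.6 TPM, HIST1H2AC at 19.5 ± 2.0, HIST1H1C at 17.8 ± 1.1, HIST1H2BH at 17.6 ± 1.1 and HIST1H2BK at 17.6 ± 0.3 TPM, and from HIST1H2AC to HIST1H2BK neighbours did not differ beyond their spread. In Lane 4 they belonged to HIST1H2AC at 23.3 ± 3.0 TPM, HIST1H2BK at 15.3 ± 2.3, HIST1H4H at 12.7 ± 5.8, HIST3H2A at 11.9 ± 4.8, HIST1H1C at 10.4 ± 4.1 and HIST1H2BD at 10.4 ± 3.8 TPM, and the last 4 lay within each other's spread. HIST1H2BG, an H2B gene, passed 5 TPM only in Lanes 1 to 3, at means of 5.12 to 5.40 TPM, against 1.67 and 1.803 TPM in the TruSeq groups and 3.20 ± 3.23 TPM in Lane 4.

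HIST1H2AA and HIST1H2BA, neighbouring genes whose H2B product is known from the testis, were at 0 in all 179 libraries. HIST1H1T, the testis linker histone gene, had 2 counts in Lane 1 and 1 in Lane 3 over whole lanes and none elsewhere. HIST3H3, the testis H3 gene, had 1 count in H1p43 and none elsewhere. Both were named after their values were seen. With summed totals of 82964105 expected counts in H1p16 and 120790271 in Lane 1, transcripts of these genes were not detectable, or barely so, at this depth.

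H2A and H2B genes often lie head to head with a short region between their starts, so the 2 members of a pair share much of their promoter. There were 11 such pairs with starts at most 500 bases apart, and HIST1H2AA with HIST1H2BA was at 0. Levels differed by more than 3-fold for 5 of the pairs in TruSeq and 4 in Lane 4. Among the 5, HIST1H2AD and HIST1H2BF had only 0.132 and 0.588 TPM, and HIST1H2AJ and HIST1H2BM 1.345 and 0.292 TPM. In Lane 4 these pairs were 2.125-fold, with the other gene higher, and 1.36-fold apart. HIST1H2BK had a mean of 16.01 TPM over the 6 TruSeq libraries and its neighbour HIST1H2AH 0.595 TPM, 26.9-fold apart, and in Lane 4 they had 15.3 and 0.913 TPM. The pairs described were chosen after their values were seen. HIST3H2A and its neighbour HIST3H2BB had 20.3 and 0.963 TPM in TruSeq and 11.9 and 1.59 TPM in Lane 4. HIST1H2AC and HIST1H2BC had 16.8 and 2.86 TPM in TruSeq and 23.3 and 1.74 TPM in Lane 4. HIST2H2AC and HIST2H2BE had 3.93 and 4.998 TPM in TruSeq but 1.19 and 5.03 TPM, 4.24-fold apart, in Lane 4. HIST1H2AE and HIST1H2BG had 2.23 and 1.74 TPM in TruSeq and 2.60 and 3.20 TPM in Lane 4. The 200 bases before the start of HIST1H2BK (GRCh38.p14, chr6:27146859-27147058, minus strand) and of HIST3H2A (GRCh38.p14, chr1:228457874-228458073, minus strand) are printed from RefSeq as the regions between the 2 pairs most unequal in TruSeq, with motif matches in capitals.
HIST1H2BK: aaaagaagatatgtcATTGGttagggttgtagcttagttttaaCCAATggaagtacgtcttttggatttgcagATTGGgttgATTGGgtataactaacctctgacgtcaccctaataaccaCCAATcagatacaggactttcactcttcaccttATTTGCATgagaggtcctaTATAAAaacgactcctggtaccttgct
HIST3H2A: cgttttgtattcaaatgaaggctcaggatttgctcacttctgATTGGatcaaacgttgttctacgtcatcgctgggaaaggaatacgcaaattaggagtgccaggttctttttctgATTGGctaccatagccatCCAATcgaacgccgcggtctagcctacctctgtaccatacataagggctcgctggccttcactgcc
The motifs searched on both strands were CCAAT, which NF-Y binds, TATAAA, the TATA box, and ATTTGCAT, the octamer that POU2F1 (Oct-1) binds in H2B promoters. The HIST1H2BK stretch held 5 matches to CCAAT, 1 to TATAAA and 1 to ATTTGCAT, none overlapping, and the HIST3H2A stretch held 3 to CCAAT and none to the other motifs. RefSeq promoter entries of 300 bases were found for 65 of the 70 genes. The octamer letters were in 14 of 18 H2B and 11 of 16 H2A entries, 1 of 12 H3 entries and none of 6 H1 or 13 H4 entries, against 2.19% of 27305 genes. CCAAT was in every H1, H2A, H2B and H3 entry but in 3 of 13 H4 entries, against 39.7% of all genes. TATAAA was in 44 of 65 entries, against 13.99%.

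The number of members seen in a library followed its depth. With at least 1 expected count as the criterion, a mean of 59 ± 3.6 of the 70 genes was detected in H1p16 and 58.7 ± 1.5 in H1p43 (SD). Lane 1 had 20.5 ± 3.6, Lane 2 had 26.98 ± 3.9, Lane 3 had 33.3 ± 3.2 and Lane 4 had 41.7 ± 2.7. When each library was brought to a common total of 1040671 counts by expectation, the lanes came to 18.7, 19.1, 19.05 and 19.1 genes and TruSeq to 23.6 for H1p16 and 21.8 for H1p43. Of the 14 H3 genes, 2.28 were detected per library in Lane 1, 7.17 in Lane 4 and 12.8 over TruSeq, and of the 15 H4 genes 3.98, 7.33 and 11.2. Counted over whole groups the difference narrowed, with 64 genes found in at least 1 H1p16 library, 62 in H1p43, 67 in Lane 1, 64 in Lanes 2 and 3 each, and 62 in Lane 4.

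**Figure D2:**
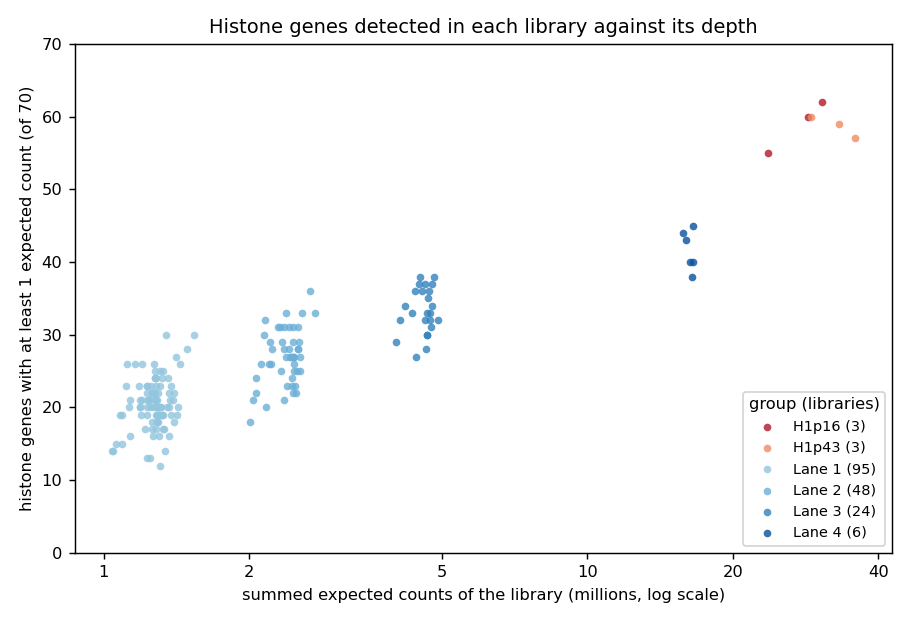
Number of the 70 histone genes with at least 1 expected count in each library (y axis) against the library's summed expected counts (x axis, log scale); each of the 179 points is a library, coloured by group. Detection climbs from a mean of 20.5 genes in Lane 1 to 41.7 in Lane 4 and lies near 59 in TruSeq.

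No member was detected in all 95 Lane 1 libraries. The same 6 genes were detected in all 48 Lane 2 and all 24 Lane 3 libraries: HIST1H1C, HIST1H2AC, HIST1H2BD, HIST1H2BK, HIST2H2BE and HIST3H2A. The first 5 are the members listed here as having a known polyadenylated form. That list was chosen with earlier results of these data known, and the 6 genes had the most counts of all members in both lanes. Whether their detection has to do with poly(A) tails was not tested. In Lane 1 these 6 were found in 90 to 94 of 95 libraries, and the next, HIST1H4H, in 75. HIST1H4J was found in 2 of 95 Lane 1 libraries, 5 of 48 in Lane 2, 3 of 24 in Lane 3 and 1 of 6 in Lane 4, but in all 6 TruSeq libraries. These figures depend on how reads were divided with its identical copy: over Lane 1, HIST1H4J was given 2 counts and HIST1H4K 49. The 2 genes summed were at 0 TPM in 60 of 95, 26 of 48, 7 of 24 and 1 of 6 libraries of Lanes 1 to 4.

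The first comparison set the 2 TruSeq groups against each other, within 1 protocol. Among the members called, most were lower in H1p43, while the H2A gene HIST3H2A was higher. HIST3H2A had 17.48, 16.78 and 11.85 TPM in the H1p16 libraries and 25.13, 25.70 and 25.04 TPM in the H1p43 libraries. All 3 H1p43 values lay above all 3 H1p16 values, with a log2 fold change of 0.62 ± 0.12 (SE) and an adjusted p of 0.000215 (edgeR's quasi-likelihood test with Benjamini-Hochberg adjustment, as for the other adjusted p-values). HIST1H4H, an H4 gene, had 7.88, 7.21 and 9.74 TPM in H1p16 and 4.18, 4.14 and 4.71 TPM in H1p43. Its groups did not overlap, and the log2 fold change was -1.03 ± 0.22 with an adjusted p of 0.000341. HIST1H2AC, an H2A gene with a polyadenylated form, had 21.82, 17.85 and 18.95 TPM in H1p16 and 13.68, 14.08 and 14.34 TPM in H1p43. Again the groups did not overlap, and the log2 fold change was -0.58 ± 0.11 with an adjusted p of 0.000147. HIST1H2BK had 17.68, 17.88 and 17.29 TPM in H1p16 and 14.98, 14.14 and 14.11 TPM in H1p43. The groups did not overlap, and the log2 fold change was -0.40 ± 0.08 with an adjusted p of 0.000400.

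Counts sufficed to test 28 of the 70 genes, and 9 were called at an adjusted p below 0.05, 2 higher and 7 lower, against 71.8% of the 14574 genes tested (36.4% higher and 35.4% lower). The TPM values of the groups did not overlap for 8 of the 28, against 73.7% of all genes tested. Both member shares lie below the background, and no test of that difference was made. Some of the 28 had few counts, such as HIST1H2AK with 5.23 to 14.47 per library, which leaves less power to call a difference. The median log2 fold change of the 28 was -0.31 and that of all tested genes 0.01, and 23 of the 28 lay below 0. The 28 count the identical copies HIST1H4J and HIST1H4K, HIST2H2AA3 and HIST2H2AA4, and HIST2H4A and HIST2H4B as separate genes. HIST2H2BE, an H2B gene with a polyadenylated form, was the second gene called higher, from 4.31 ± 0.28 to 5.69 ± 0.62 TPM (log2 fold change 0.30 ± 0.11, adjusted p = 0.0158). That call was lost without H1p16 replicate 3 (adjusted p = 0.0617) or without H1p43 replicate 3 (adjusted p = 0.0972). The other genes called lower were HIST1H2BO at -1.10 ± 0.38, HIST1H2AG at -0.67 ± 0.24, HIST2H2BF at -0.56 ± 0.23 and HIST1H2BD at -0.39 ± 0.14 on the log2 scale. Each of these 4 was lost on leaving out 1 library. The adjusted p reached 0.130 for HIST1H2BO without H1p16 replicate 1 and 0.0695 without H1p43 replicate 3, and 0.0582 for HIST1H2AG without H1p16 replicate 1 and 0.0644 without H1p43 replicate 2. It reached 0.0509 for HIST1H2BD without H1p16 replicate 2 and 0.109 without H1p43 replicate 2. HIST2H2BF was lost whichever library was left out, with adjusted p from 0.0574 to 0.138. DESeq2 did not call HIST1H2BO (adjusted p = 0.0653), HIST1H2BD (0.0776), HIST2H2BE (0.0928), HIST1H2AG (0.109) or HIST2H2BF (0.194). Without H1p16 replicate 1 the count of members called lower fell from 7 to 4. By contrast HIST3H2A, HIST1H4H, HIST1H2AC and HIST1H2BK kept their call in all 13 alternative settings.

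**Figure D3:**
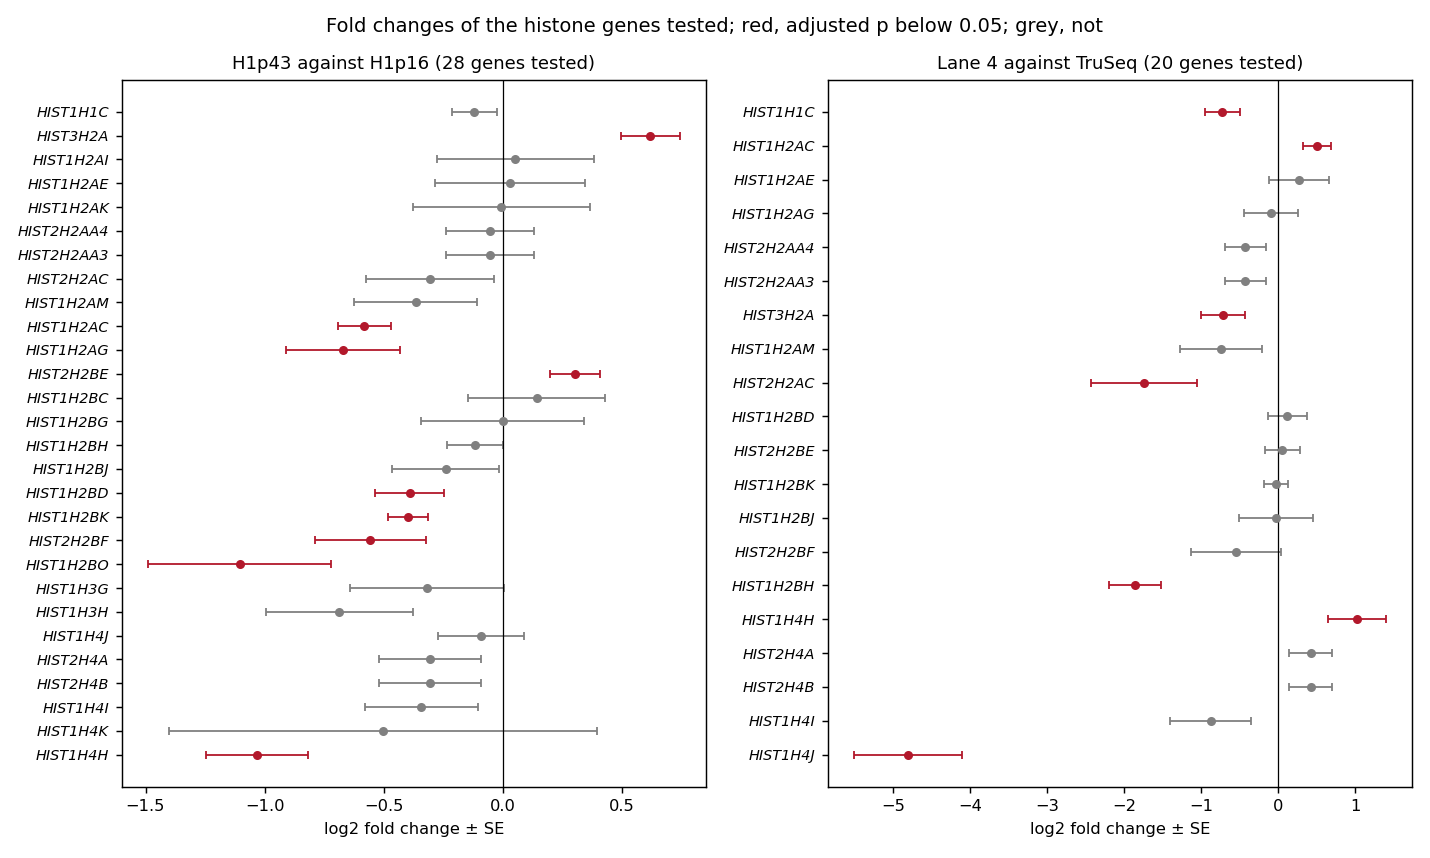
Log2 fold change (x axis) with its SE (bars) of each histone gene tested, ordered by type, for H1p43 against H1p16 (left, 28 genes) and Lane 4 against TruSeq (right, 20 genes); red points passed an adjusted p of 0.05. On the left 23 of 28 points lie below 0 and 9 are red, and on the right HIST1H4J stands alone at -4.81.

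For HIST1H4J, HIST1H1C and HIST1H2BH no difference between H1p16 and H1p43 was called. HIST1H4J and HIST1H4K together had 41.66, 51.95 and 37.38 TPM in H1p16 and 39.36, 44.90 and 42.59 TPM in H1p43, overlapping groups with a log2 fold change of -0.17 ± 0.11 for the summed counts (adjusted p = 0.180). HIST1H1C was at -0.12 ± 0.09 (adjusted p = 0.259) and HIST1H2BH at -0.12 ± 0.12 (adjusted p = 0.387). The identical pairs HIST2H2AA3 with HIST2H2AA4 and HIST2H4A with HIST2H4B, summed within each pair, were at -0.04 ± 0.14 (adjusted p = 0.797) and -0.31 ± 0.16 (adjusted p = 0.102). Among genes with too few counts for the main test, the linker histone gene HIST1H1A had 0.23, 0.09 and 0.10 TPM in H1p16 and 0.99, 0.94 and 0.69 TPM in H1p43, from 4 and 31 counts over the groups. It was called higher with no filter on low counts (log2 fold change 2.49 ± 0.65, adjusted p = 0.00132). HIST1H3E, an H3 gene, had 1.84, 1.26 and 1.68 TPM in H1p16 and 0.29, 0.99 and 0.27 TPM in H1p43, and was called lower in the same setting (-1.76 ± 0.55, adjusted p = 0.00683). Both were named after their values were seen.

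Among genes that act with these histones, counts called lower outnumbered counts called higher in H1p43 in each list. Over all genes tested 35.4% were lower and 36.4% higher, and no test of any list against that background was made. Of 15 genes for DNA synthesis in S phase, 13 were lower and none higher, with a median log2 fold change of -0.40 against 0.01 for all genes tested. RRM2, a subunit of ribonucleotide reductase, went from 202.7 to 105.4 TPM (-1.05 ± 0.02), and MCM5, a subunit of the replicative helicase, from 406 to 235 TPM (-0.89 ± 0.03). Of 8 regulators of histone gene transcription, 5 were lower and none higher, among them NPAT, the coactivator of these genes, at -0.31 ± 0.05, and CCNE2, a cyclin partner of CDK2, at -0.75 ± 0.08. In the group for histone messenger 3' ends and turnover, 7 of 11 genes were lower and 2 higher. SLBP was at -0.37 ± 0.04 and the helicase gene UPF1 at -0.39 ± 0.03. Of 14 histone chaperone genes 9 were lower and 2 higher, with ASF1A at -0.54 ± 0.04 and HIRA at -0.33 ± 0.03 against CABIN1 at 0.26 ± 0.03. Replacement histones were divided, 4 higher and 7 lower of 12. H1F0 went from 34.4 to 65.3 TPM (0.82 ± 0.04), H2AFY2, a macroH2A gene, from 7.97 to 16.7 TPM (0.96 ± 0.07), and H3F3B from 389 to 353 TPM (-0.25 ± 0.02). All 6 pluripotency markers lay below 0 and 5 were called lower, with DNMT3B at -1.03 ± 0.02. Of the 3 fibroblast markers tested, COL1A2 and PDGFRB were higher at 0.68 ± 0.03 and 0.80 ± 0.05 and COL1A1 lower at -0.08 ± 0.04. Of the 3 neuroectoderm markers tested 2 were higher and 1 lower. The 1 primitive streak and mesoderm marker tested was higher and the 1 endoderm marker lower. These markers' part in the histone gene differences was not tested, and in bulk RNA fewer cells of a type and less RNA per cell cannot be told apart.

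The second comparison set LM-Seq Lane 4, the deepest LM-Seq lane, against the 6 TruSeq libraries. It compares protocols together with whatever else differed between the sets of libraries, and these cannot be told apart. It shares the H1p16 and H1p43 libraries with the first comparison. The most unequal member was HIST1H4J. It had 41.66, 34.46 and 28.49 TPM in H1p16 and 39.36, 21.33 and 42.59 TPM in H1p43, against 7.15 TPM in the second Lane 4 library and 0 in the other 5. No library overlapped, and the log2 fold change was -4.81 ± 0.69 (adjusted p = 1.29e-05). Summed with its identical copy HIST1H4K, it had 37.38 to 51.95 TPM in TruSeq, with a median of 42.13, and in Lane 4 the lowest value was 0, the median 1.91 and the highest 10.77 TPM. For the summed counts the log2 fold change was -3.80 ± 0.47 (adjusted p = 2.50e-06), so the call did not depend on how reads were divided between the copies. The same sum had means of 3.29 TPM in Lane 1, 3.34 in Lane 2 and 2.55 in Lane 3, and its highest value in those lanes was 21.9 TPM.

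HIST1H2BH, an H2B gene, had 18.82, 17.56 and 16.54 TPM in H1p16 and 16.59, 17.47 and 18.41 TPM in H1p43, against a lowest value of 1.59, a median of 4.43 and a highest of 8.36 TPM in Lane 4. The groups did not overlap, and the log2 fold change was -1.86 ± 0.34 (adjusted p = 0.000139). HIST1H1C, a linker histone gene, had 16.71 to 19.11 TPM in TruSeq with a median of 17.4 TPM, and in Lane 4 its lowest value was 5.16, its median 10.8 and its highest 16.57 TPM. Its groups did not overlap either, and the log2 fold change was -0.73 ± 0.23 (adjusted p = 0.00915). In Lanes 1 to 3 the means of HIST1H2BH were 4.67 to 5.84 TPM and those of HIST1H1C 9.79 to 10.9 TPM, near their Lane 4 levels. HIST1H4J, HIST1H2BH and HIST1H1C kept their call in every alternative setting in which they were tested, 20, 21 and 22 settings.

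**Figure D4:**
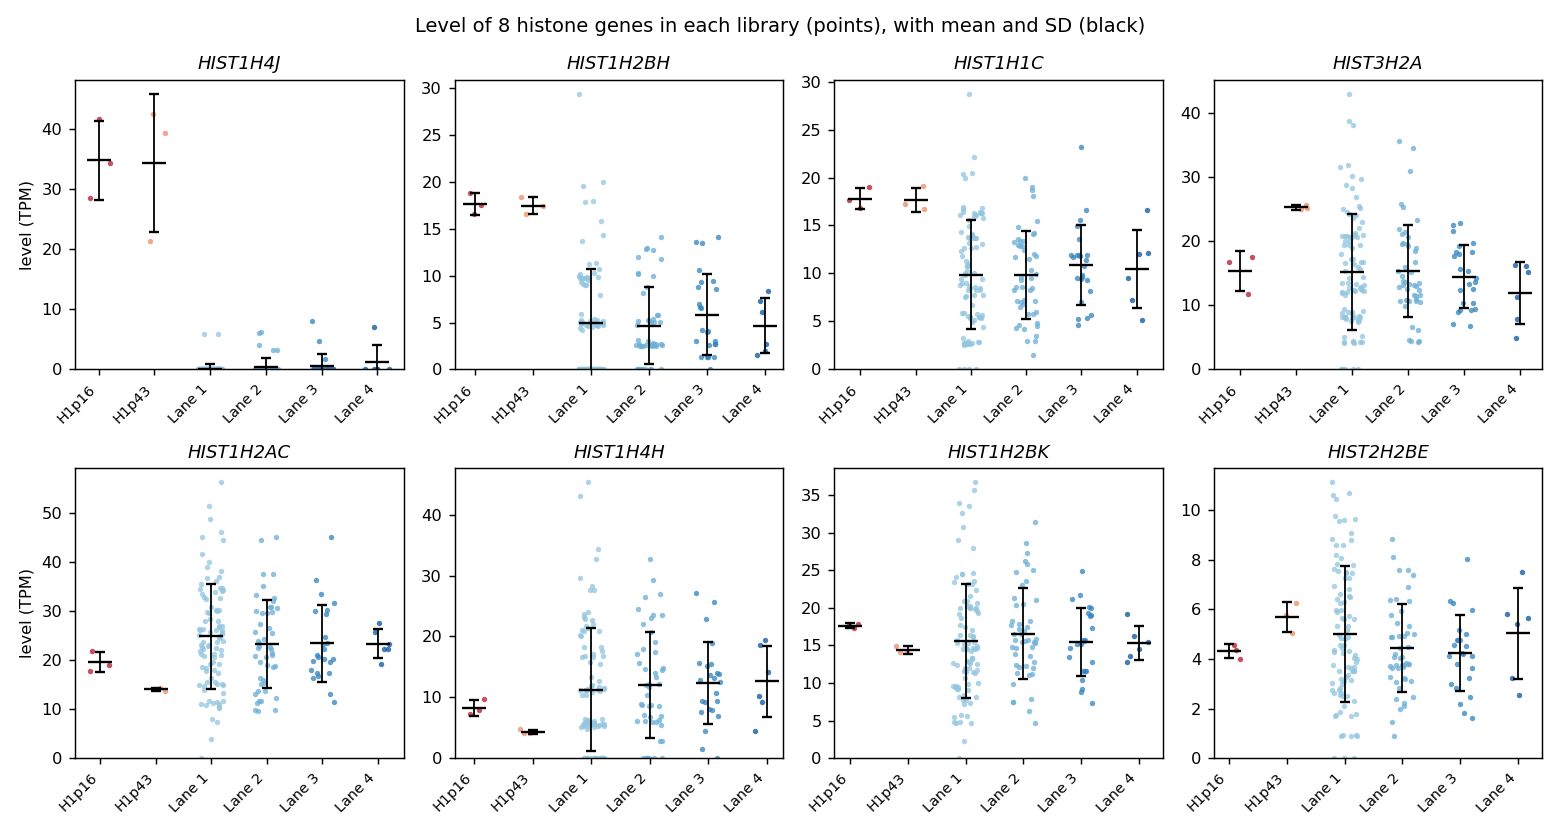
TPM (y axis) of 8 histone genes in every library, 1 panel per gene, by group on the x axis; points are libraries, black marks the mean and SD, and SD bars that pass below 0 are cut at the axis. HIST1H4J, shown without its identical copy HIST1H4K, is at 21.33 to 42.59 TPM in TruSeq and at 0 in most LM-Seq libraries. HIST1H2BH and HIST1H1C are lower in Lane 4 than in any TruSeq library. HIST3H2A, HIST1H2AC, HIST1H4H, HIST1H2BK and HIST2H2BE separate H1p16 from H1p43.

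In all, 20 of the 70 genes had counts enough to test, and 7 were called, 2 higher and 5 lower, against 71.3% of the 13827 genes tested (34.3% higher and 36.9% lower). The groups' values did not overlap for 5 of the 20, against 53.9% of all genes tested. Among the 5 are the identical copies HIST2H2AA3 and HIST2H2AA4, whose values are equal in every library, so the same measurement enters more than once. HIST2H4A and HIST2H4B likewise both count among the 20. The median log2 fold change of the 20 was -0.26, and that of all tested genes -0.06. HIST2H2AC, an H2A gene, was lower at -1.74 ± 0.69 (adjusted p = 0.0340), with 3 of 6 Lane 4 libraries at 0. HIST3H2A was lower at -0.72 ± 0.28 (adjusted p = 0.0318), from a TruSeq mean of 20.3 to a Lane 4 mean of 11.9 TPM. HIST1H4H was higher at 1.02 ± 0.37 (adjusted p = 0.0221), with 4.42 to 19.40 TPM in Lane 4, and HIST1H2AC at 0.50 ± 0.18 (adjusted p = 0.0204), with 19.08 to 27.62 TPM. These 4 rested on single libraries or on the mix of TruSeq groups. Against H1p16 alone HIST3H2A was at -0.39 (adjusted p = 0.330), HIST1H2AC at 0.22 (adjusted p = 0.333), HIST1H4H at 0.57 (adjusted p = 0.263) and HIST2H2AC at -1.91 (adjusted p = 0.0516), which reached an adjusted p of 0.117 against H1p43 alone. HIST1H4H was also lost without the second Lane 4 library (adjusted p = 0.0576) or the fourth (adjusted p = 0.0605), and HIST1H2AC without H1p43 replicate 1 (adjusted p = 0.0518) or 2 (adjusted p = 0.0501). HIST3H2A was lost without any 1 of the H1p43 replicates, or without the second, the fourth or the sixth Lane 4 library, with adjusted p from 0.0507 to 0.0652. HIST2H2AC was lost without H1p16 replicate 1 or without the first, the fourth, the fifth or the sixth Lane 4 library, with adjusted p from 0.0632 to 0.0694. The count called higher fell from 2 to 1 without H1p43 replicate 1 or 2 or the second or the fourth Lane 4 library, and the count called lower from 5 to 3 without the fourth or the sixth Lane 4 library.

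Of the 5 members listed here as having a known polyadenylated form, 3 showed no called difference between the protocols. HIST1H2BK had 16.01 ± 1.8 TPM in TruSeq and 15.3 ± 2.3 TPM in Lane 4 (log2 fold change -0.03 ± 0.15, adjusted p = 0.863). HIST2H2BE had 4.998 ± 0.87 and 5.03 ± 1.83 TPM (0.05 ± 0.23, adjusted p = 0.853), and HIST1H2BD 8.52 ± 1.26 and 10.4 ± 3.8 TPM (0.11 ± 0.25, adjusted p = 0.700). Of the other 2, HIST1H1C was lower and HIST1H2AC higher, as given above. The H4 pair HIST2H4A with HIST2H4B, summed, had 12.1 ± 2.0 TPM in TruSeq and 15.8 ± 5.2 TPM in Lane 4 (0.42 ± 0.24, adjusted p = 0.133), and HIST1H4I was at -0.88 ± 0.53 (adjusted p = 0.146).

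Some members too scarce for the main test were called without a filter, in both directions. HIST1H4C, an H4 gene, had 1.23, 0.38 and 0.40 TPM in H1p16 and 0.69, 1.19 and 0.32 TPM in H1p43, against 1.26 to 5.84 TPM in Lane 4 with a median of 4.44 TPM. It missed the filter of the main test, and without a filter the log2 fold change was 2.48 ± 0.53 (adjusted p = 0.000643). HIST1H1B, a linker histone gene, had 0.23 to 0.53 TPM in TruSeq and 1.03 to 2.69 TPM in Lane 4, without overlap (2.25 ± 0.45 without a filter, adjusted p = 0.000356). HIST1H4D, an H4 gene, had 21 counts over the 6 TruSeq libraries and none in Lane 4, at least 3.78-fold lower against a floor of 3 counts over the group. HIST1H3E was lower in the same setting at -2.88 ± 0.97 (adjusted p = 0.0165), and the linker histone gene HIST1H1A and the H3 gene HIST1H3B were higher at 2.06 ± 0.73 (adjusted p = 0.0218) and 2.03 ± 0.68 (adjusted p = 0.0157). These 6 genes were named after their values were seen.

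Members are short in the transcript models used for the counts, and length moved with the protocol difference across all genes. The ratio of expected count to TPM gave a relative length for 60 of the 70 members, with a median of 0.150 of the median gene and a highest value of 0.759, for HIST2H2BE. In Lane 4 against TruSeq, the shortest of 10 equal length classes of tested genes had a median log2 fold change of -0.68 and the longest class 0.39. The 18 members in the shortest class had a median of -0.26, and 61.8% of all genes in that class were called lower. In H1p43 against H1p16 the shortest and longest classes had medians of -0.0043 and -0.0098, and the 26 members in the shortest class -0.31. The part of length in the single members' differences was not tested.

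**Figure D5:**
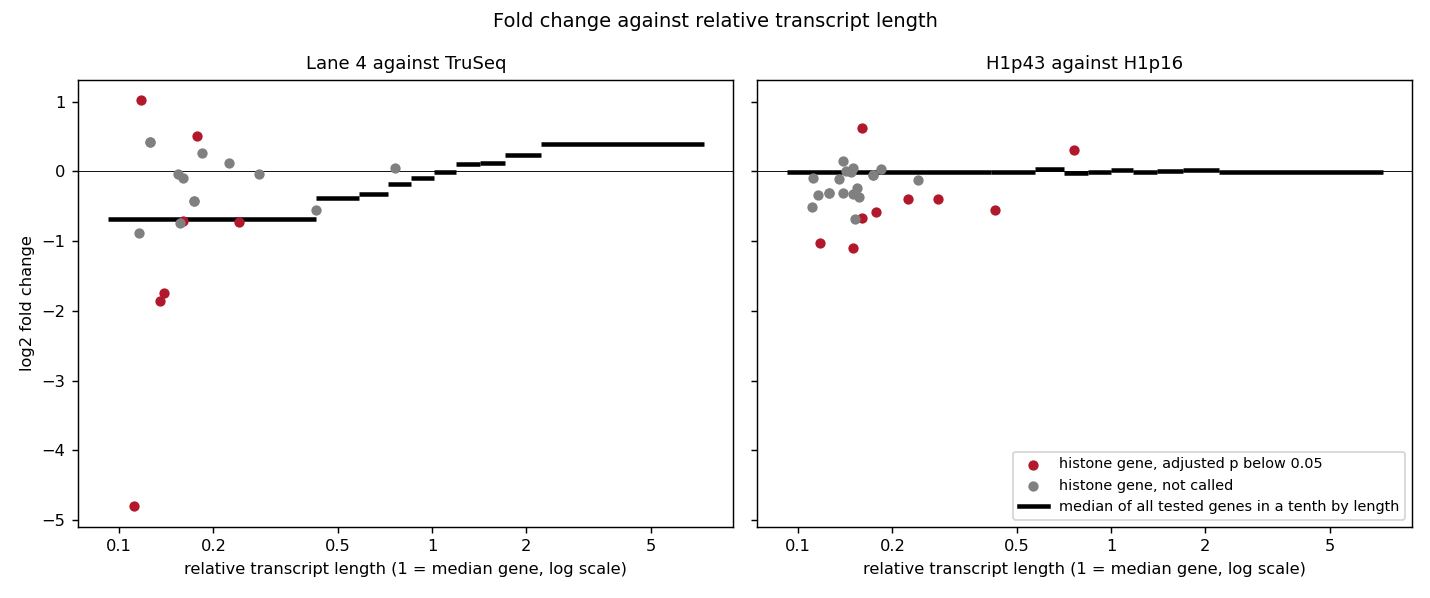
Log2 fold change (y axis) against relative transcript length (x axis, log scale, 1 = median gene) for Lane 4 against TruSeq (left) and H1p43 against H1p16 (right); points are histone genes, red where the adjusted p was below 0.05, and black bars the median of all tested genes in each of 10 length classes. The bars climb from -0.68 to 0.39 on the left and stay near 0 on the right, and HIST1H4J lies far below its bar on the left.

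Related genes were called in both directions between the protocols, as were genes in general, of which 34.3% were higher and 36.9% lower in Lane 4. No test of any list against that background was made. The chaperone NASP, which binds H1 and H3-H4, was higher in Lane 4 at 1.62 ± 0.07, and ATRX, a chromatin remodeller that acts with DAXX, at 1.44 ± 0.06, while CABIN1, a partner of HIRA, was lower at -1.10 ± 0.07. In all, 8 of 14 chaperone genes were higher and 3 lower. Of the S-phase genes 9 of 15 were higher and 3 lower, of the histone transcription genes 4 of 8 were higher and 3 lower, and of the 3'-end genes 3 of 11 were higher and 4 lower. Replacement histone genes were lower in 6 of 12 and higher in 3, with H2AFZ at -0.40 ± 0.06, H1FX at -0.89 ± 0.12 and H3F3B at 0.51 ± 0.06.

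The last comparisons set lanes of the same protocol against each other over the library numbers that both held. Here 0, 3 and 7 members could be tested for Lanes 2, 3 and 4 against Lane 1, and none was called, with none at an unadjusted p below 0.05 either. Over all genes the share called was 0% of 10120, 0% of 10871 and 0.0161% of 12419, and the groups did not overlap for 0%, 0% and 0.0805% of genes. DESeq2, which tested 66, 64 and 62 members, also called none. The largest of the tested differences was HIST1H4H in Lane 4 against Lane 1, with 12.7 ± 5.8 and 7.67 ± 4.69 TPM (0.71 ± 0.62, adjusted p = 1.00). HIST1H2AC was at 0.07 ± 0.18 in Lane 3 against Lane 1 and 0.15 ± 0.32 in Lane 4 against Lane 1, and HIST1H2BK at 0.20 ± 0.17 and 0.07 ± 0.30. With these errors a difference of the size seen for HIST1H2AC between H1p43 and H1p16 would lie within 2 SE in Lane 4.

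Shallow lanes gave most members a few counts per library. In Lane 1 HIST1H2AC had 0 to 15 expected counts with a median of 6.99, and HIST1H2BK 0 to 14 with a median of 6. TPM then moved in large steps: HIST1H2AC had an SD of 10.7 TPM over Lane 1, 8.99 over Lane 2, 7.90 over Lane 3 and 2.99 over Lane 4, at means between 23.2 and 24.8 TPM. For the 10 members with at least 100 counts over Lane 1, the spread between libraries relative to counting noise (chi-square per degree of freedom, about 1 for counting alone) had a median of 1.26, against 1.35 for all 2678 genes, members included, with at least 100 counts and no more than the highest member. The lowest, 0.432 for HIST2H4A and HIST2H4B alike, belongs to copies among which shared reads are split evenly. The highest was 1.71, for HIST2H2BE. In Lanes 2 and 3 the members' medians were 1.56 and 2.04, against 1.61 and 2.15 for all genes within the same limits. Evenly split copies lower the members' medians in all these lanes. In Lanes 2 and 3 they were HIST2H4A and HIST2H4B, each at 0.640 and 0.758, and HIST2H2AA3 and HIST2H2AA4, each at 0.668 and 1.03. Whether the remaining members spread less than genes in general cannot be read from these medians.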

How the data were processed

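The submitters' processing notes name CASAVA 1.8.2, Bowtie 0.12.8 and RSEM 1.2.3, with hg19 as the build. Expected counts, the estimates RSEM makes, were deposited by the authors beside TPM values, in which a count is scaled by transcript length and library total. Expected counts were rounded and tested over all genes with edgeR 4.0.16 in R 4.3.3 (quasi-likelihood test, filterByExpr, TMM, no covariates, Benjamini-Hochberg adjustment, called below 0.05). The fit was also tested on simulated data. Alternatives used DESeq2 1.42.0, RLE factors, no filter, limma 3.58.1 on log2(TPM + 1) or log2(TPM + 0.1), the replicate block, libraries left out, other lanes, and, chosen after seeing the data, identical copies summed.

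The members and lists were chosen with earlier results of these data known. Named members have a mean of at least 5 TPM in a group, were called with at least 1 TPM in the higher group, were at 0 throughout, or share a sequence with a named member; other lists give up to 4 called genes with the lowest adjusted p, and exceptions are marked as named after their values were seen. Relative length is expected count over TPM.

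Same-numbered libraries deviated together from their lane means, with correlations of 0.133 to 0.610 (Lane 2), 0.191 to 0.521 (Lane 3) and 0.343 to 0.421 (Lane 4) against Lane 1, all over 0.1. Within a group no libraries were duplicates: chi-square per degree of freedom between 2 libraries of a group was at least 1.29. That check did not compare libraries across lanes. All 70 members matched RefSeq by transcript. The floor used for HIST1H4D covers counting error only, while each ± is an SD between libraries or the SE of a fit.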

Additional observations from a re-analysis of the deposited data

Results flagged for a closer look

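With 6 libraries, Lane 4 was checked for a lone high or low value in 32 sets of values, and chance flags about 1 in 20 groups. HIST1H4J had 7.15 TPM in the second library and 0 in the other 5 libraries. The sum of HIST1H4J and its identical copy HIST1H4K had 10.77 TPM in the same library, and the next highest was 2.35 TPM. The summed level of the H2B genes was 44.32 TPM in the third library, and the next lowest was 53.33 TPM. The first 2 values share the HIST1H4J reads of the second library, which also had the highest summed H4 level, 69.2 TPM.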

How the results depend on the processing

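Between H1p43 and H1p16 the count of members called higher was 2 to 3, and the count called lower 4 to 7, over fits that left out 1 library each. Between Lane 4 and TruSeq these counts were 1 to 3 and 3 to 6. In the second comparison the count called higher was 6 with DESeq2, 6 with no filter on low counts and 6 with limma on log2(TPM + 1), 4 with limma on log2(TPM + 0.1), 4 against H1p43 libraries only, and 1 with Lane 3, Lane 2 or Lane 1 in place of Lane 4. The count called lower was 10 with limma under either pseudocount, 3 against H1p16 libraries only, 2 with Lane 2 and 0 with Lane 1 in place of Lane 4. More members were tested where counts were not filtered (66) and fewer with the shallow lanes (8, 6 and 3); otherwise the cause was not tested. With no filter the median of all genes moved from -0.06 to -0.20 (log2). No member called in either comparison changed direction. Between Lane 4 and TruSeq, HIST1H2BG and HIST1H4K had too few counts for the main test and no stable sign: they were at 0.91 and -2.18 with DESeq2 but -0.04 and 0.005 with limma on log2(TPM + 0.1), and neither was called.

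The replicate block between H1p43 and H1p16 gave 2 members higher and 6 lower, losing HIST2H2BF (adjusted p = 0.0525). Same-numbered libraries there deviated together with correlations of only 0.00167 to 0.0437. Between lanes the replicate block called 0 members and changed no call of a member, although over all genes it called 26, 44 and 13 in Lanes 2, 3 and 4. Each other lane alternative also called 0 members.

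Detection depends on the criterion. With at least 5 counts, means of 40.7, 40, 3.06, 6.17, 11.4 and 29.7 members were detected in H1p16, H1p43 and Lanes 1 to 4. At the common total the means were 23.6 and 21.8 in TruSeq and 19.1, 19.05 and 19.1 in Lanes 2 to 4. As a share of expected counts in place of TPM, the ratio of the summed level in Lane 4 to that in TruSeq was 0.692 in place of 0.777.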
